A study of Mus musculus with 109 samples.

Results

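A set of 10 genes of the cellular stress and protein folding responses was followed in microglia, the resident macrophages of the brain: Hspa5, Ddit3, Atf4, Xbp1, Trib3, Chac1, Asns, Sesn2, Herpud1 and Dnajb9. They were chosen by name, as the rows with these symbols in the deposited expression tables, and all 10 were found among the 13902 genes listed over 4 tables. Microglia were isolated from mouse brain by flow cytometry on CD45 and CD11b, and RNA was counted by MARS-seq, which tags the 3′ ends of transcripts. LPS, a bacterial cell wall component, was injected into the peritoneum once at 2.5 mg/kg, and untreated mice stood as the steady state.

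The controls were IL10Rafl/fl mice, which carry floxed Il10ra alleles and no Cre: 6 untreated libraries, 6 at 6 h after LPS, 4 at 24 h, 6 at 48 h and 4 at 7 days. Il10ra mutants were CX3CR1-CreER:IL10Rafl/fl mice, in which the Cx3cr1 promoter drives an inducible Cre in microglia and other Cx3cr1-expressing cells, with 9 untreated libraries, 7 at 6 h, 5 at 24 h and 5 at 48 h. Doubly floxed controls were IL10Rafl/fl:TNFfl/fl mice without Cre, with 6 untreated libraries, 5 at 6 h and 6 at 48 h. Double mutants were CX3CR1-CreER:IL10Rafl/fl:TNFfl/fl mice, with 5 untreated libraries, 6 at 6 h and 4 at 48 h. The column of 1 untreated double mutant library, replicate 4, is named as a mistake in the deposited table, and it was used as its labels state. There were also 4 libraries from untreated WT C57BL/6 mice. Age, sex and the Cre induction are not stated, nor whether each library came from a separate animal, so p-values measure the spread between these libraries.

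The integrated stress response joins several kinases that phosphorylate the translation factor eIF2alpha. Global protein synthesis then falls while translation of Atf4 mRNA rises, and the ATF4 protein activates genes for amino acid supply and redox balance. The unfolded protein response is set off by misfolded protein in the endoplasmic reticulum (ER). It runs through the sensors PERK, which phosphorylates eIF2alpha, IRE1, which splices Xbp1 mRNA, and ATF6, and the latter pair raise chaperones and degradation factors of the ER. Among the genes followed here, Atf4, Ddit3, Trib3, Chac1, Asns and Sesn2 are commonly assigned to the ATF4 arm, and Xbp1, Hspa5, Herpud1 and Dnajb9 to the ER arm, with Herpud1 open to both.

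Values are the authors' normalised counts per library. Each of the 4 tables was normalised separately, so the same control library has slightly different values in each, and tests were made only within a table. Recovered counts ranged from 540642 to 2489084 per library over the 3 tables that hold LPS-treated libraries. A gene was tested if it reached a normalised value of 5 in at least 4 libraries of a table. Fold changes are on the log2(value + 1) scale, where the added 1 shrinks changes of genes with few counts. A gene was called at an adjusted p below 0.05 (limma, Benjamini-Hochberg over all genes tested in the table). A background is the share of all genes tested that were called, in either direction unless stated. The experiment was an additive term in the fits, except where a compared group formed an experiment of its own. In bulk libraries, a smaller share of cells of a type and less RNA per cell cannot be told apart. Read counts for Chac1, Asns and Trib3 were low. Their called changes are therefore also given as ratios of recovered counts (each divided by the total of its libraries), which hold no experiment term. A fitted change of these genes can lie above or below its ratio. The 95% intervals of the ratios cover counting error only. Untreated libraries beside LPS-treated ones seldom reached the filter value for these genes, so their testing depended mainly on LPS-treated libraries. In the annotation, Hspa5 overlaps Rabepk, and Ddit3 overlaps Mbd6 and Mars1, all on the other strand. Whether counting used strand is not stated, so these values may include reads of the overlapping genes.

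At 6 h after LPS, control microglia held more mRNA of 7 of the 9 genes tested, and none had less. Of the ATF4 arm, 4 of the 5 genes tested rose: Atf4 by 2.30 ± 0.19 (log2, SE), Chac1 2.95 ± 0.54, Asns 2.82 ± 0.66 and Sesn2 1.52 ± 0.24. Of the 4 genes of the ER arm 3 rose: Hspa5 by 1.03 ± 0.29, Herpud1 by 1.02 ± 0.21 and Xbp1 by 0.71 ± 0.20. Ddit3 (0.02 ± 0.32) and Dnajb9 (0.31 ± 0.28) did not pass the test. For scale, 41.5% of all 11103 genes tested changed at 6 h, and 20.4% were higher. The median log2 change was 1.03 over the 9 genes and -0.05 over all genes tested. Trib3 was listed in this table but fell below the expression filter. Chac1 and Asns passed the filter only through LPS-treated libraries, where they were high, so the count of 7 is partly set by the filter.

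Atf4 encodes the transcription factor at the centre of the integrated stress response. In control microglia its lowest, median and highest normalised values were 299, 418 and 499 untreated, and 769, 1221 and 2247 at 6 h (adjusted p = 1.11e-10, limma). Every 6 h library exceeded every untreated one. At 24 h the 4 libraries held 716, 803, 863 and 506, which was 1.18 ± 0.19 above untreated (adjusted p = 1.86e-05, limma), again with no overlap. At 48 h the values were back among the untreated ones, at 372, 455 and 528, with a difference of 0.01 (95% interval -0.33 to 0.35). The 6 h libraries split by experiment: those of the second experiment ranged from 1519 to 2247 and those of the unnumbered experiment from 769 to 923. The unnumbered experiment held no untreated control, and the 6 h estimate therefore rests on the second experiment, where the untreated and treated groups had 3 libraries each.

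Asns, Chac1 and Sesn2, which ATF4 is known to act on, rose with it at 6 h. Asns makes asparagine, and Chac1 degrades glutathione. The promoters of both hold the letters TGATGNAA, which is 1 form of the composite C/EBP-ATF site at which ATF4 binds (searched on both strands). They are shown with the fixed letters of the match in capitals (for Chac1 the match is on the opposite strand, so the capitals spell its reverse complement):
Asns: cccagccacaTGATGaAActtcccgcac
Chac1: ttccctgccgTTgCATCActcctgccag
The Asns stretch is chr6:7693215-7693242 on the minus strand and the Chac1 stretch chr2:119351039-119351066 on the plus strand (RefSeq, GRCm38.p6). The matches lie 23 to 16 bases and 193 to 186 bases before the annotated starts. Of 32851 promoters of the same length in the table, 3.97% hold this motif. It is also in 2 of the other genes followed here, Herpud1 and Trib3, so that 4 of 10 promoters hold it. The windows run from 250 bases before to 50 after the start, and the Trib3 match lies past the start.

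Asns values in untreated controls were 0.834, 2.12 and 4.41 (lowest, median, highest), against 9.98, 19.7 and 28.1 at 6 h (adjusted p = 0.00102, limma). The groups did not overlap, and in recovered counts the ratio was 7.24 (95% interval 4.2 to 13.2; 83 against 16 counts). Chac1 gave 31 counts over the 6 libraries at 6 h and 3 over the 6 untreated, a ratio of 14.4 (95% interval 4.5 to 73.7), with reads in 6 and 2 libraries respectively. No untreated control reached the filter value of 5 for Asns or for Chac1 (highest 1.57), so both were tested only through LPS-treated libraries. Sesn2, a stress-inducible sestrin that restrains mTORC1, went from 23.4, 35.5 and 39.7 to 52.8, 75.3 and 114.2 without overlap (adjusted p = 9.61e-06, limma). By 48 h Asns lay at 0, 2.97 and 7.69, and Sesn2 at 26.0, 30.6 and 41.3, both overlapping untreated. Chac1 at 48 h had 25 counts and did not pass the test (1.35 ± 0.49, adjusted p = 0.0514, limma), though all 6 libraries held reads. Its ratio to untreated was 7.79 (95% interval 2.38 to 40.3; 25 against 3 counts), and edgeR called it (adjusted p = 0.0490), for 4 of 9 genes in all at 48 h against 3 by limma. At 24 h Chac1 was called too (1.96 ± 0.54, adjusted p = 0.00661, limma), on 12 counts (ratio 6.46, 95% interval 1.74 to 35.7).

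Ddit3 encodes CHOP, a factor tied to stress-induced cell death, and Trib3 a pseudokinase that restrains ATF4 and AKT. Ddit3 values ran over 59.4, 95.9 and 127 untreated and 54.2, 84.0 and 171 at 6 h, with wide overlap. Its differences at 24 h (0.13, 95% interval -0.51 to 0.78) and 48 h (-0.35, 95% interval -0.94 to 0.23) also missed the threshold. Trib3 gave 4 counts over the untreated control libraries and 8 at 6 h, 6 of those 8 in 1 library.

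**Figure D1:**
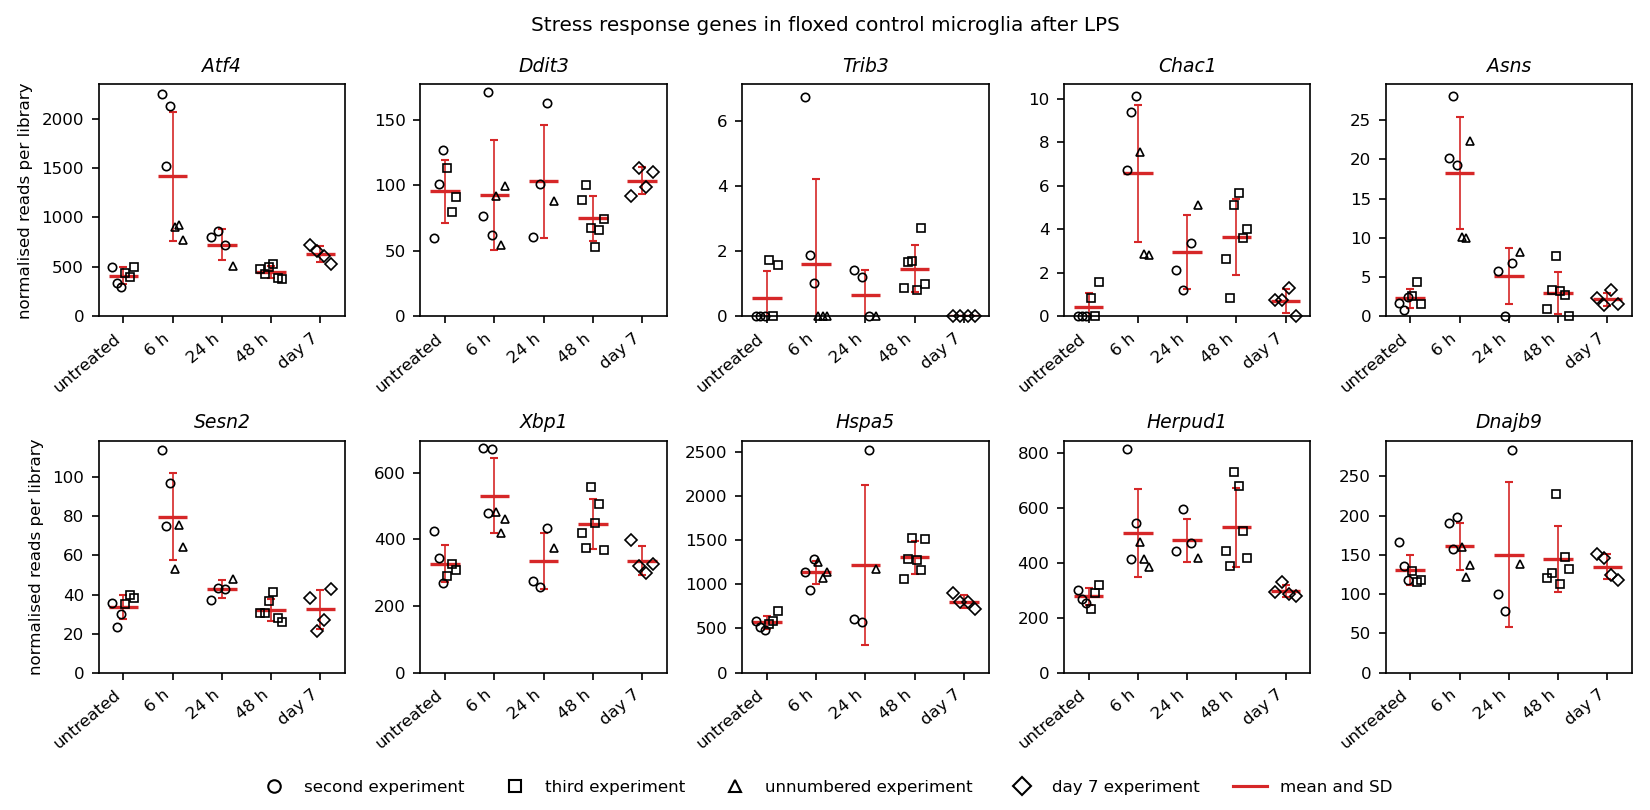
Normalised values (y axis, from 0) of the 10 genes in every floxed control library, by time after LPS (x axis); marker shapes give the experiment and red bars the mean and SD. Atf4, Asns and Sesn2 have their highest means at 6 h and overlap the untreated libraries at 48 h, whereas all 48 h libraries of Hspa5 and Herpud1 lie above the untreated ones.

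In the ER arm, Hspa5 and Herpud1 were still above steady state at 48 h in the singly floxed controls. Hspa5 encodes BiP, the main Hsp70 chaperone of the ER. Its promoter holds the ER stress element ERSE, the box CCAAT followed after 9 bases by the box CCACG (both strands searched). The element is shown with its outer boxes in capitals:
Hspa5: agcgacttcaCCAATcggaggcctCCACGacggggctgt
This stretch is chr2:34772015-34772053 on the plus strand, and the element lies 65 to 47 bases before the start. It occurs in 39 of the 32851 promoters (0.119%), and among the genes followed here in Hspa5 only. Herpud1 encodes an ER membrane protein that helps in the degradation of misfolded proteins. Its promoter holds the shorter element ERSE-II, the box ATTGG followed after 1 base by CCACG, found in 12 promoters (0.0365%) and in no other gene of the 10, together with the TGATGNAA motif on the opposite strand. Both are in capitals:
Herpud1: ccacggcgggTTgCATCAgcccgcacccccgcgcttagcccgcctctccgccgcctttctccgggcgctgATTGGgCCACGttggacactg
The stretch is chr8:94386307-94386397 on the plus strand, with the ERSE-II match 52 to 42 bases before the start and the other match farther upstream. The motifs TGACGTGG, an XBP1 and ATF6 element, and TGACGTCA, a cAMP response element, were in 0.676% and 1.79% of promoters and in none of the 10.

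Hspa5 values in controls were 481.9, 566.5 and 699.8 untreated (lowest, median, highest) and 934, 1138 and 1294 at 6 h, with no overlap (adjusted p = 0.00565, limma). At 48 h they were 1067, 1285 and 1528, which was 1.09 ± 0.27 above untreated (adjusted p = 0.00383, limma), again with no overlap. The 24 h libraries were split, at 2521, 609, 577 and 1174: 2 of the 4 lay within the untreated range. The 24 h call (0.90 ± 0.29, adjusted p = 0.021, limma) fell to 0.38 (adjusted p = 0.134) without the highest library, replicate 3. It was also lost without untreated replicate 2 (0.89, adjusted p = 0.0565, limma) or 3 (0.83, adjusted p = 0.0716). Within the second experiment alone, 3 libraries against 3, the 6 h difference of Hspa5 was 1.07 and missed the threshold (adjusted p = 0.0886, limma).

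Herpud1 stayed up through 48 h in these singly floxed controls. Its values were 233, 281 and 319 untreated, 386, 446 and 817 at 6 h, and 389, 480.5 and 731 at 48 h. No treated library at 6, 24 or 48 h overlapped the untreated ones, with rises of 1.02 ± 0.21, 0.89 ± 0.21 and 0.88 ± 0.19 (adjusted p = 0.000251, 0.00185 and 0.00116, limma). Xbp1, the factor that IRE1 activates by splicing, has total mRNA here, and its spliced form was not measured. It rose at 6 h (0.71 ± 0.20, adjusted p = 0.00514, limma) and at 48 h (0.52 ± 0.18, adjusted p = 0.0431), and its 24 h difference was 0.00. Xbp1 groups overlapped at each time. The 48 h call was lost under quantile normalization (0.41, adjusted p = 0.122, limma) and on leaving out singly untreated replicate 4, 5 or 6 or 48 h replicate 1, 3, 4 or 5. The 6 h call was lost without untreated replicate 3 (0.54, adjusted p = 0.0554, limma). Dnajb9, a BiP co-chaperone also called ERdj4, ranged from 115.5 to 167 untreated, 121 to 199 at 6 h and 112.4 to 227 at 48 h, and passed no test in controls.

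The later time was also set against the earlier one, a contrast added after the values were seen. In controls between 6 h and 48 h, Atf4 fell by 2.29 (adjusted p = 5.46e-07, limma), Asns fell by 3.02 (adjusted p = 0.0167; ratio in counts 0.17, 95% interval 0.0998 to 0.276) and Sesn2 fell by 1.76 (adjusted p = 0.000343), against 20.1% of all genes called. The differences were 0.06 for Hspa5 (95% interval -0.75 to 0.87) and -0.14 for Herpud1 (95% interval -0.72 to 0.44). The 6 h and 48 h control libraries came from different experiments, joined only through untreated libraries. In doubly floxed controls both times were in the same experiments, and there 6 of 9 genes were lower at 48 h than at 6 h (background 40%). The differences were -1.13 for Atf4 (adjusted p = 1.11e-09, limma), -1.44 for Sesn2, -2.16 for Asns, -1.91 for Chac1, -0.63 for Xbp1 and -0.45 for Herpud1, whereas Hspa5 differed by 0.12 (95% interval -0.22 to 0.46). The ratios in counts were 0.194 for Asns (95% interval 0.107 to 0.332) and 0.132 for Chac1 (0.0456 to 0.313). The comparisons with steady state share the untreated libraries.

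Counts of genes called stood at 4 of 9 at 24 h (background 29.2%), 3 of 9 at 48 h (background 19%) and 0 of 9 at day 7 (background 3.03%). At day 7, limma gave 2 genes at an unadjusted p below 0.05, both higher, and edgeR called 0. These were Atf4, at 719, 661, 615 and 532 (0.63 ± 0.24, adjusted p = 0.181, limma), and Hspa5, at 900.5, 797.5, 799.5 and 720.1 (0.50 ± 0.24, adjusted p = 0.367). All 4 libraries of each lay above every untreated library. The shares of all genes that did so, or had an unadjusted p below 0.05, were not taken, so this is a description. The day 7 libraries were an experiment of their own, and time and experiment cannot be told apart. In the same libraries 7 of 7 neutrophil, 5 of 5 monocyte, 5 of 5 erythroid and 4 of 4 border macrophage markers were higher than in untreated controls, and their part in the day 7 values was not tested.

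Other genes of the same pathways were described from lists, whose counts stand against 20.4% of all genes tested being higher at 6 h and 19% changed in either direction at 48 h. Of 18 amino acid genes tested (transporters, aminoacyl-tRNA synthetases and serine and one-carbon enzymes), 13 rose at 6 h, with a median change of 1.39. Slc7a1, a cationic amino acid transporter, rose 3.74, Slc7a5, a carrier of large neutral amino acids, 2.89, and its partner Slc3a2 1.41. At 48 h 4 of the 18 were higher than untreated, led by Psat1 (2.50), an enzyme of serine synthesis. Of 10 sensors and eIF2alpha regulators, 5 rose at 6 h, among them Atf6 (1.85) and the phosphatase subunits Ppp1r15a (2.42) and Ppp1r15b (1.40), which reverse eIF2alpha phosphorylation. Of 8 ATF4 partner and stress genes, 5 rose and 1 fell: Cebpb rose 3.05 and Atf3 2.11, whereas Cebpg fell by 1.95.

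Of 15 ER chaperones and folding enzymes, 3 were higher and 3 lower at 6 h, and their median change equalled that of all genes (both -0.05). At 48 h 9 of 15 were higher and none lower, with a median change of 1.10 against -0.02 over all genes: Manf, a secreted ER stress factor, rose 1.50, Dnajb11, a BiP co-chaperone, 1.32, and the disulphide isomerase P4hb 1.27. ER degradation and translocation genes rose in 2 of 14 cases at 6 h, a share below that of all genes, and in 5 of 14 at 48 h, led by Sec61b (1.26), Os9 (0.71) and Syvn1 (0.80). The lists were chosen with results of these data known, so their counts are a description. Microglial markers fell in 6 of 8 cases at 6 h and 4 of 8 at 48 h, and immediate early genes rose in 7 of 8 and 1 of 8. The part of these shifts in the stress genes was not tested.

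The effect of losing Il10ra, the receptor chain for the anti-inflammatory cytokine IL-10, was compared at each time. Il10ra mRNA itself was lower in untreated mutants (log2 difference -3.25, adjusted p = 3.69e-13, limma) and after LPS (-2.93, -3.82 and -3.48 at 6, 24 and 48 h), in the direction the labels give. At steady state none of the 10 genes differed (background 0.00865%): limma found 0 at an unadjusted p below 0.05 and edgeR called 0. The largest steady-state difference was 0.39 (Chac1) and the intervals for Atf4 and Hspa5 were -0.19 to 0.54 and -0.26 to 0.42.

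In the mutants at 6 h, 8 of 10 genes rose over untreated mutants (background 55.1% changed, 26.5% higher). Atf4 rose 1.88 ± 0.18, Asns 2.80 ± 0.43, Chac1 2.40 ± 0.42, Sesn2 1.64 ± 0.17, Trib3 2.33 ± 0.36, Herpud1 1.28 ± 0.21, Hspa5 0.96 ± 0.17 and Xbp1 0.86 ± 0.14. In recovered counts the ratios were 5.51 for Asns (95% interval 3.3 to 9.64), 9.39 for Chac1 (4.23 to 24.6) and 11.1 for Trib3 (3.94 to 43). Against controls at 6 h, 1 of 10 was called (background 3.31%). This was Trib3, higher in mutants by 1.39 (95% interval 0.64 to 2.15, adjusted p = 0.0312, limma). Its 7 mutant values were 9.10, 5.02, 6.87, 8.99, 3.60, 2.78 and 0, and its 6 control values 6.01, 1.71, 0.909, 0, 0 and 0. Outside the 6 h groups, no Trib3 value reached the filter minimum of 5 (highest 3.17, in an untreated mutant). Trib3 was thus tested only through 6 h libraries, mostly of mutants, where it was high, and all its calls in mutants share this limit. Chac1 too was tested only through LPS-treated libraries (highest untreated value 3.43, in a mutant). The 6 h groups overlapped, and the call against controls rests on 33 against 8 counts (ratio 3.32, 95% interval 1.5 to 8.31). It was not made by edgeR (adjusted p = 0.132), without the experiment term (adjusted p = 0.0741, limma), within either experiment, or on leaving out singly control replicate 3, 4, 5 or 6 or mutant replicate 1, 4, 5 or 6. Sesn2 (0.58, adjusted p = 0.055, limma) missed the threshold and was the 1 gene of the 10 called by edgeR (0.59, adjusted p = 0.0472). Herpud1 (0.59, adjusted p = 0.124, limma) was called by neither. The response itself, as the difference of differences, was not called for any of the 10 genes (0% of all genes; 0 at an unadjusted p below 0.05 among the 10 by limma). For Atf4 it was -0.01 (95% interval -0.53 to 0.52). This fit includes untreated mutants of the unnumbered experiment. The control rise of Atf4 given earlier comes from a fit without mutant libraries, so it is not to be set beside the mutant 1.88.

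At 24 h none of the 10 genes was called between Il10ra mutants and controls (background 3.5%). Limma gave 3 at an unadjusted p below 0.05, 2 higher and 1 lower. The share of all genes at that threshold was not taken, so the 3 are a description. Of all 11555 genes edgeR called 489, and of the 10 it called 1. That gene was Hspa5, at 608, 622, 803, 678 and 721 in mutants against 2314, 560, 528 and 1075 in controls. All mutant values lay inside the wide control range (limma -0.51, 95% interval -0.94 to -0.08, adjusted p = 0.157; edgeR -0.78, adjusted p = 0.0348). Without control replicate 1 or 2, the low pair of the controls, limma gave -0.73 (adjusted p = 0.035) and -0.75 (adjusted p = 0.0157). Within the mutants at 24 h, 4 of 10 genes were called, all higher than untreated. That share lies below the 53.5% of all genes called in either direction. The 4 were Atf4 (1.24 ± 0.20), Herpud1 (1.08 ± 0.23), Asns (1.47 ± 0.47) and Trib3 (1.40 ± 0.40). The ratios in counts were 1.9 for Asns (95% interval 0.975 to 3.75; 21 against 19 counts) and 3.45 for Trib3 (0.923 to 15.6; 8 against 4 counts). Both intervals include 1. The difference between the 24 h responses of the genotypes was called for 0 of 10 genes by limma and by edgeR (background 0.0433%), with Hspa5 alone at an unadjusted p below 0.05 (-0.59).

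At 48 h Atf4 was higher in Il10ra mutants than in controls, and Hspa5 and Dnajb9 were lower, so 3 of 10 genes were called (background 27.9%). The contrast rests on the third experiment, with 3 mutant and 6 control libraries. All 3 calls were made within that experiment alone, but this uses the same libraries and is no second test. No control at 48 h belonged to the second DKO experiment, so its 2 mutant libraries added to the spread but not to the contrast. The share called among the 10 is near that of all genes, so the count is no result about the set, and the 3 genes are described singly.

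Atf4 at 48 h was 753, 860.4, 883, 945 and 913 in the mutants and 342, 420 and 491 in the controls (lowest, median, highest). Every mutant library exceeded every control, by 1.01 in the fit (95% interval 0.54 to 1.49, adjusted p = 0.000913, limma). Relative to untreated mutants, 2 of 10 genes were called at 48 h (background 35.6%), Dnajb9 lower and Atf4 0.95 ± 0.25 higher (adjusted p = 0.00249, limma). The mutant mean of Atf4 was 385 ± 71.3 (SD, n = 9) untreated, 1426 ± 524 (n = 7) at 6 h, 817 ± 41 (n = 5) at 24 h and 871 ± 73.4 (n = 5) at 48 h. The control means on the same scale were 379 ± 75.4 (n = 6), 1278 ± 580 (n = 6), 662 ± 143 (n = 4) and 414 ± 59 (n = 6).

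For Hspa5 the order was reversed. Its mutant values at 48 h were 587, 468, 695.5, 396 and 396.5, against 986, 1189 and 1409 in controls. No library overlapped, and the fitted difference was -1.05 (95% interval -1.50 to -0.61, adjusted p = 0.000246, limma). The mutants had risen at 6 h, to a mean of 1074 ± 185 (SD, n = 7) from 567 ± 62.3 (n = 9), and at 48 h they held 509 ± 130 (n = 5). That was -0.04 from untreated mutants (95% interval -0.51 to 0.44). Between 6 h and 48 h in mutants 6 of 10 genes were lower (background 9.38%), and Hspa5 fell by 1.00 (adjusted p = 0.0129, limma). No experiment held both times for mutants, so this contrast too is joined through other groups.

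Dnajb9 held 88.6, 47.5, 65.8, 94.96 and 91.0 in the mutants at 48 h and 105, 119 and 209.6 in the controls, again without overlap (-0.98, 95% interval -1.45 to -0.50, adjusted p = 0.0013, limma). It was also lower than in untreated mutants (-0.80 ± 0.25, adjusted p = 0.0107, limma). The other ER arm genes did not pass the test: Xbp1 differed from controls by -0.33 (95% interval -0.70 to 0.04) and Herpud1 by -0.07 (95% interval -0.64 to 0.49). Herpud1 split by experiment, at 314, 673 and 436 in the third experiment and 832 and 1058 in the second DKO experiment. Of the remaining ATF4 arm genes, Sesn2 differed by 0.45 (95% interval 0.00 to 0.90, adjusted p = 0.133, limma), Asns by 0.43, Trib3 by 0.16, Chac1 by -0.40 and Ddit3 by -0.22. None of these was called.

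**Figure D2:**
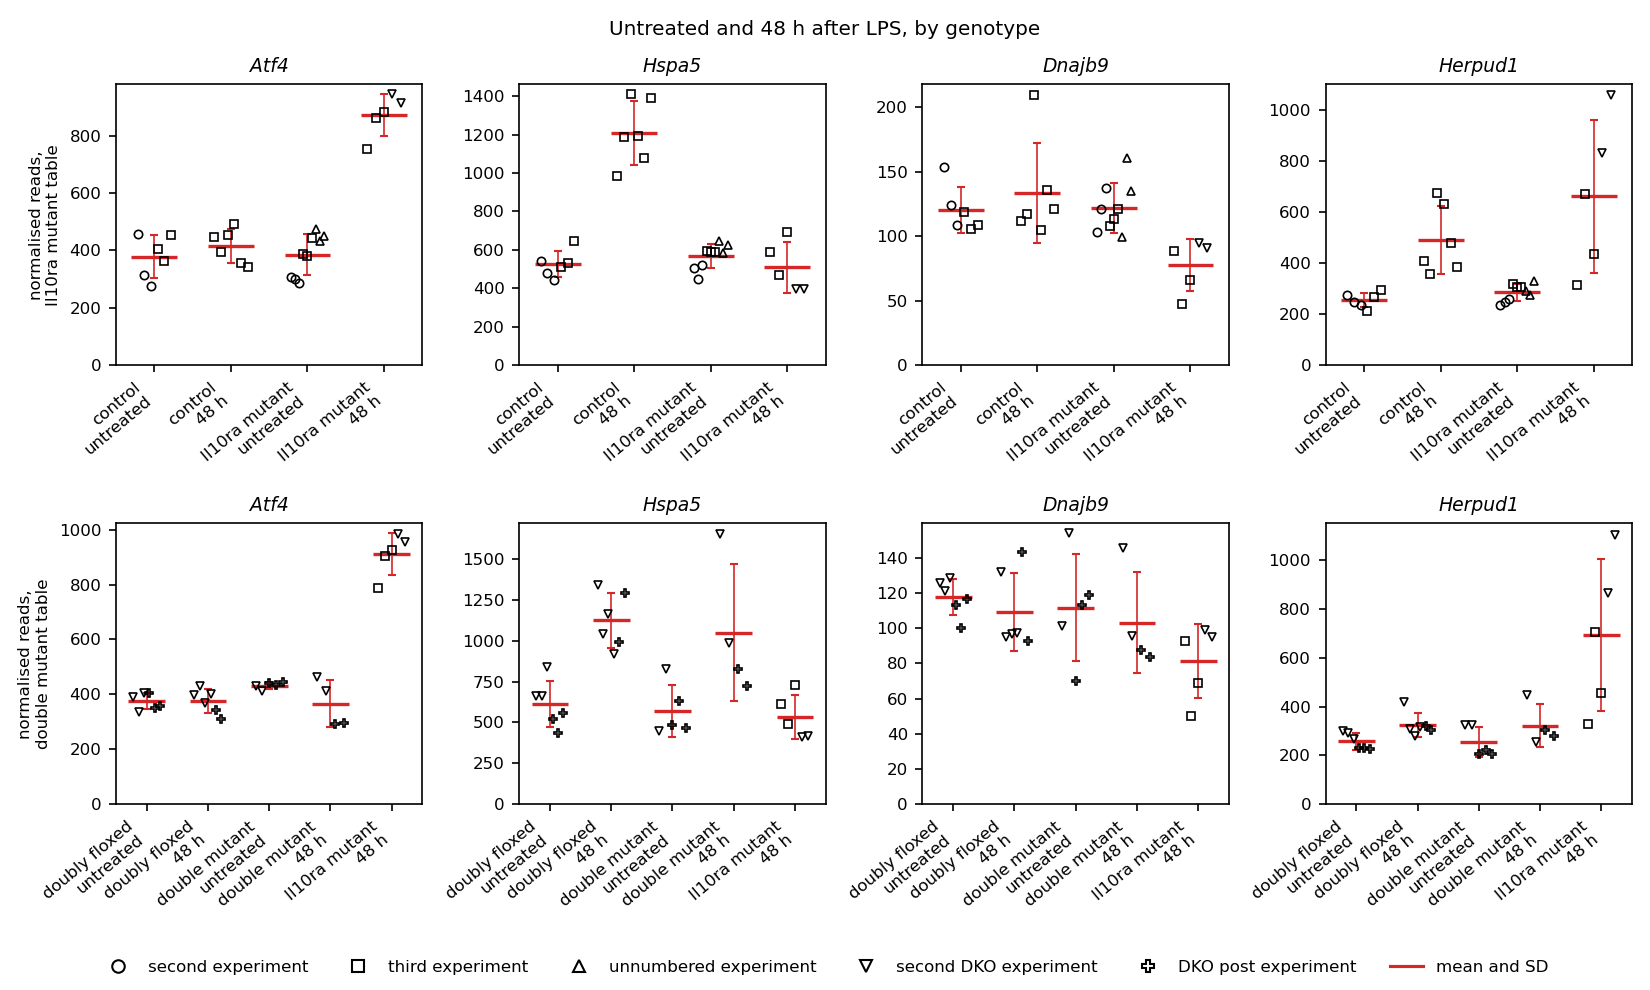
Normalised values (y axes, from 0) of Atf4, Hspa5, Dnajb9 and Herpud1 in every untreated and 48 h library, by genotype; the upper row is the Il10ra mutant table and the lower row the double mutant table, marker shapes give the experiment and red bars the mean and SD. At 48 h the Il10ra mutants lie above every singly or doubly floxed control library for Atf4 and below every one for Hspa5, whereas for Dnajb9 they lie below every control in the upper row and overlap the doubly floxed controls in the lower row.

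The response itself differed between genotypes at 48 h for the same 3 genes (background 16.4%). The change from untreated was larger in mutants by 0.84 for Atf4 (95% interval 0.24 to 1.44, adjusted p = 0.0447, limma) and smaller in mutants for Hspa5 (-1.13, 95% interval -1.69 to -0.57, adjusted p = 0.00306) and Dnajb9 (-1.02, 95% interval -1.62 to -0.42, adjusted p = 0.0129). The Atf4 difference lost its call on leaving out any of 15 single libraries, with adjusted p up to 0.112. That of Dnajb9 was lost without 48 h mutant replicate 2 (-0.79, adjusted p = 0.111, limma).

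Of 15 ER chaperones and folding enzymes, 14 were lower in Il10ra mutants than in controls and none higher, with a median difference of -1.17 against 0.01 over all genes tested. Calr, a calcium-binding chaperone, was 449 ± 117 (SD, n = 5) in mutants and 2359 ± 393 (n = 6) in controls (-2.35). Pdia6 was 201 ± 38.7 against 824 ± 174 (-2.01) and Pdia3 229 ± 91.1 against 828 ± 107.7 (-1.49), both disulphide isomerases of the ER. Hyou1 (-0.69) did not pass. Of these 15 genes, 11 also differed in their response at 48 h, all lower. ER degradation and translocation genes were lower in 7 of 14 cases and higher in 1, led by Os9 (-0.85), Sel1l (-0.58) and Derl3 (-2.46).

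Among 19 amino acid genes, 4 were higher in the mutants at 48 h and none lower (median 0.27), a share below the 27.9% of all genes called. Slc7a11, the cystine carrier, was 82.1 ± 43.3 (SD, n = 5) in mutants and 1.98 ± 1.65 (n = 6) in controls, where 15 counts were found in all (4.41 in the fit). Slc7a1 was 59.2 ± 16.6 against 15.7 ± 6.18 (1.65), and the glycyl-tRNA synthetase Gars was 0.81 higher. Ppp1r15b, which guides eIF2alpha dephosphorylation, was 193 ± 24.8 in mutants and 108.5 ± 16.3 in controls (0.89), and Atf6b was lower (-0.65). Among 8 partner and stress genes, Ddit4 (2.10) and Gadd45a (1.48) were higher, and Nupr1 (-0.74) and 1 other were lower.

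Other cell markers moved at 48 h too. Summed microglial markers ranged from 9313 to 15707 in mutants and from 22604 to 28032 in controls, with 7 of 8 lower. Neutrophil markers were higher for 3 of 7 (sums 27.8 to 1303 against 26.6 to 236), 1 of 5 monocyte markers was higher (12.3 to 85.8 against 21.3 to 35.8), and 1 of 3 border macrophage markers tested was lower (1.52 to 13.2 against 45.8 to 80.0). Sums of B and plasma cell markers, with 4 of 7 listed genes present, were 184 to 284 in mutants and 354 to 557 in controls (1 of 3 tested lower). Those of neural and endothelial markers were 59.1 to 102.9 and 31.2 to 47.4 (1 of 3 tested higher), and neither list overlapped between the groups. Untreated controls had B and plasma cell sums of 575 to 775, and the share that came from B cells was not tested in any comparison. Immediate early gene sums were 3599 to 7342 and 1799 to 4671, with 1 of 8 higher. Erythroid sums were 0 to 167 and 0 to 186, and the 2 T and NK cell markers listed reached 2.27 and 11.03 at most. Tnf, the cytokine removed in the double mutants, was 1585 ± 842 (SD, n = 5) in mutants and 201 ± 69 (n = 6) in controls (2.39, adjusted p = 0.000112, limma). The part of any of these in the stress gene differences was not tested.

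The Il10ra mutants could also be set against doubly floxed controls, which shared the second DKO experiment with 2 mutant libraries (2 against 4; a contrast added after the values were seen). In that fit Hspa5 was lower in Il10ra mutants (-1.53 ± 0.23, adjusted p = 1.55e-06, limma) and Atf4 higher by 1.32 ± 0.17 (adjusted p = 6.64e-08). Both directions were as against the singly floxed controls. Herpud1 was higher by 1.47 ± 0.21 (adjusted p = 7.27e-07, limma), and Dnajb9 was not called (-0.19, 95% interval -0.65 to 0.27). Chac1 was called (2.15, adjusted p = 0.0138, limma) on 25 against 6 counts, a ratio of 5.28 (95% interval 2.12 to 15.7), and lost the call without mutant replicate 4 (1.80, adjusted p = 0.161) or 5 (2.49, adjusted p = 0.0515). So 4 of 9 genes were called, with 33.9% of all genes. ER chaperones were lower for 10 of 15, led by Hsp90b1 (-1.92), Calr (-2.13) and Pdia6 (-1.54). Microglial marker sums were 9792 to 16416 in Il10ra mutants and 22760 to 26614 in doubly floxed controls (6 of 8 lower). Border macrophage sums were 1.58 to 13.8 against 25.7 to 178.7 (2 of 5 lower), and B and plasma cell sums 193 to 295 against 320 to 657 (2 of 2 lower). Neural and endothelial sums were 61.7 to 107.3 against 33.0 to 57.3 (1 of 4 higher). None of these sums overlapped, and their part was not tested.

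Double mutants, which lack both Il10ra and Tnf in the same cells, were compared with doubly floxed controls. Log2 differences of Il10ra in double mutants were -4.16, -3.94 and -3.63 untreated, at 6 h and at 48 h, and those of Tnf were -2.29, -5.66 and -3.94. Trib3 has no row in this table. In doubly floxed controls at 6 h, 7 of 9 genes rose (background 42.7% changed, 21.6% higher): Asns 2.71 ± 0.45, Sesn2 1.45 ± 0.22, Chac1 1.32 ± 0.50, Atf4 1.10 ± 0.12, Hspa5 0.72 ± 0.17, Herpud1 0.71 ± 0.15 and Xbp1 0.56 ± 0.15. In recovered counts the ratios were 11.7 for Asns (95% interval 4.79 to 37) and 4.34 for Chac1 (1.92 to 11.5). Asns reached the filter value of 5 in every 6 h library of both genotypes but in no untreated one (highest 3.38). It was thus tested through the groups where it was high. The Chac1 call was lost on leaving out any of 7 single libraries. At 48 h 2 of 9 were called (background 23.6%), Hspa5 higher (0.84 ± 0.16, adjusted p = 0.00011, limma) and Ddit3 lower (-0.37 ± 0.13, adjusted p = 0.0432), and the Ddit3 call was lost on leaving out any of 7 single libraries. Herpud1 was not called at 48 h (mean 324 against 258 untreated). ER chaperones were higher for 9 of 15 at 48 h (median 0.59), led by Hsp90b1 (0.74), P4hb (0.64) and Dnajb11 (0.62). Amino acid genes were higher for 15 of 18 at 6 h, led by Slc7a11 (4.86), Slc7a1 (3.23) and Shmt2 (2.03).

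Double mutants differed from doubly floxed controls in 0 of 9 genes untreated, at 6 h and at 48 h (background 0.0254%, 0.0678% and 0.0169%). At each time limma found 0 of the 9 at an unadjusted p below 0.05, and edgeR called 0. At 48 h Atf4 was 464, 411, 293 and 294.5 in double mutants and 310, 383 and 429.6 in their controls, a difference of -0.03 (95% interval -0.29 to 0.24). Hspa5 was 1654, 987.5, 827 and 723 against 919, 1102 and 1338, a difference of -0.11 (95% interval -0.47 to 0.25). The groups overlapped for both genes. Within double mutants, 7 of 9 genes rose at 6 h (background 44.3% changed, 22.8% higher), among them Asns (3.14 ± 0.46; ratio in counts 18.8, 95% interval 6.17 to 93.5), Chac1 (ratio 7.47, 95% interval 2.3 to 38.5) and Atf4 (1.03 ± 0.12), and 1 of 9 at 48 h (18.1%), which was Hspa5 (0.81 ± 0.19, adjusted p = 0.00158, limma). Within the second DKO experiment alone Hspa5 was again the 1 gene called (1.07, adjusted p = 0.0119, limma). Within the DKO post experiment Hspa5 was not called (0.57, adjusted p = 0.111), and Atf4 was called lower (-0.58, adjusted p = 0.0254, limma). The double mutant response differed from that of their controls for none of the 9 genes at 6 h (background 0.00847%) or 48 h (0%), with 0 at an unadjusted p below 0.05 by limma and 0 calls by edgeR. Without untreated replicate 4 of the double mutants, an alternative chosen after seeing the data, all these counts that rest on the untreated group (0 of 9 untreated, 7 and 1 of 9 within double mutants and 0 of 9 for both response differences) were the same.

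Double mutants and Il10ra mutants were compared directly at 48 h, where 3 of 9 genes were called (background 28.6%). Hspa5 was higher in double mutants by 1.42 ± 0.25 (adjusted p = 2.29e-05, limma). Its double mutant values are given above, and the Il10ra mutants held 613, 492, 728, 413 and 414.5, so that the lowest double mutant (723) lay just under the highest Il10ra mutant. Atf4 was lower (-1.34 ± 0.18, adjusted p = 2.44e-07, limma), with no double mutant above 464 and no Il10ra mutant below 787. Herpud1 was lower (-1.44 ± 0.23, adjusted p = 5.03e-06, limma), at 449, 255, 304 and 279.9 against 328, 708, 457, 868 and 1106, with overlap. The estimates rest on the second DKO experiment, which held 2 libraries of each. ER chaperones were higher in double mutants for 10 of 15, led by Calr (2.02), Hsp90b1 (1.65) and Pdia6 (1.56). Amino acid genes were lower for 6 of 18 and higher for 1, against 28.6% of all genes called, led by Slc3a2 (-1.35), Slc7a11 (-4.52) and Slc7a1 (-2.66). Microglial markers were higher for 6 of 8 (sums 20493 to 25219 against 9792 to 16416), as were 1 of 5 border macrophage markers (22.5 to 97.0 against 1.58 to 13.8) and 2 of 2 B and plasma cell markers tested (377 to 666 against 193 to 295). Neural and endothelial sums were 36.6 to 60.9 against 61.7 to 107.3, with 1 of 4 lower. None of these sums overlapped, and the part of these markers in the stress gene differences was not tested.

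**Figure D3:**
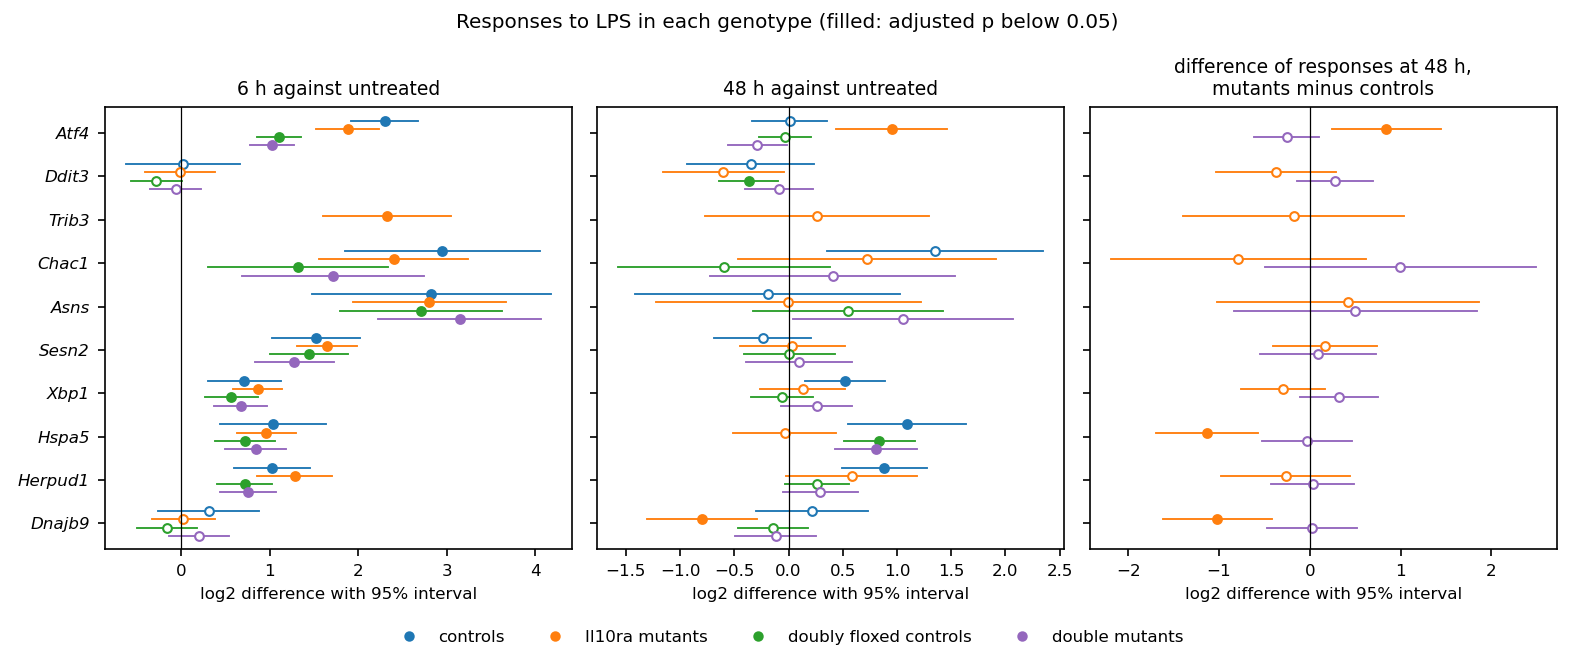
Fitted log2 changes from untreated at 6 h and 48 h in each genotype, and the difference of the 48 h responses (mutants minus their controls), with 95% intervals (x axes); filled points passed the test. In the right panel Atf4, Hspa5 and Dnajb9 are filled for Il10ra mutants and no gene is filled for double mutants.

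**Figure D4:**
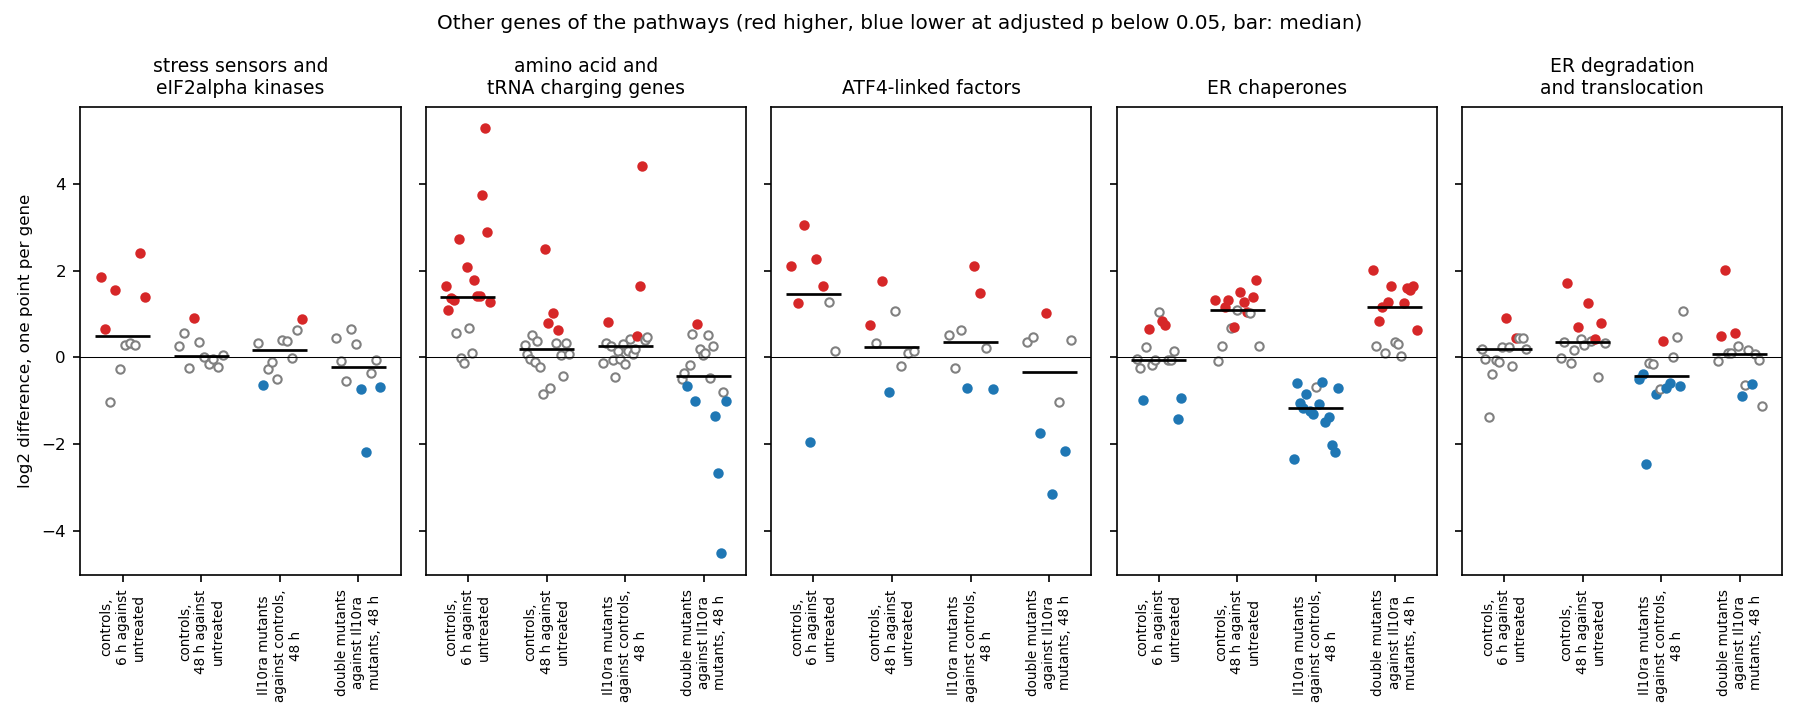
Log2 differences (y axis) of the genes of 5 pathway lists in 4 comparisons (x axis), 1 point a gene, filled red where called higher and blue where called lower, with a bar at the list median. Of the 15 ER chaperones, 9 are red at 48 h in controls, 14 are blue in Il10ra mutants against controls at 48 h, and 10 are red in double mutants against Il10ra mutants.

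At steady state the genes also varied between mouse lines. Untreated C57BL/6 libraries differed from untreated singly floxed controls in 5 of the 7 genes tested, all higher in C57BL/6 (background 9.74%): Atf4 by 1.06 ± 0.15, Ddit3 by 0.62 ± 0.18, Dnajb9 by 0.60 ± 0.14, Hspa5 by 0.45 ± 0.12 and Herpud1 by 0.41 ± 0.12. Atf4 was 722 ± 27.5 (SD, n = 4) against 352 ± 68.6 (n = 6), without overlap. Hspa5 and Herpud1 lost their calls under quantile normalization (adjusted p = 0.191 and 0.116, limma). The C57BL/6 libraries formed an experiment of their own, so strain and experiment cannot be told apart. In them 8 of 8 immediate early genes and 4 of 4 erythroid markers were higher. B and plasma cell sums were 816 to 954 against 537 to 720 (1 of 3 tested higher), and monocyte sums 3.45 to 9.37 against 18.95 to 29.6 (1 of 3 lower), without overlap. The part of these in the strain difference was not tested.

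Likeness to other genes was described over the 8 group means of the Il10ra table, as Pearson's r of log2 values with 6707 genes outside the 10. The means share libraries and normalisation, so r is a description. Atf4 was most like Nol11 (0.996) and Nle1 (0.996), Hspa5 most like Ipmk (0.963) and Vps54 (0.950), and Herpud1 most like Gbp3 (0.986) and Ifit2 (0.976). Xbp1 was most like Eed (0.981) and Sema4a (0.974), Sesn2 most like Rhoc (0.984) and Gnl1 (0.972), Dnajb9 most like Emc10 (0.951) and Adam10 (0.942), and Ddit3 most like Secisbp2l (0.968) and Hmces (0.959). Among the 10, Atf4 and Hspa5 had r = 0.344 over these 8 means, and Hspa5 and Xbp1 had r = 0.691.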

How the data were processed

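Per the labels' protocols, microglia were enriched from brain and sequenced by MARS-seq. The series also has accessibility data, not used here. The deposited tables hold normalised gene values, a signal that the authors made from counts with a size factor per library; mm10 is the build named in the submitters' processing notes. The aligner and counter are not stated. Every column turned out to be multiples of 1 step, giving whole counts for 100% of values (tolerance 0.01), and whether these are reads or molecules is not stated. Rows turned into dates by a spreadsheet were left out (17 or 18 per table), as was 1 blank row in 2 tables. No column of per-sample values was left unmapped.

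log2(value + 1) was fitted with limma 3.58.1 (R 4.3.3, trend) over all groups of a table. The filter kept genes that reached 5 in 4 or more libraries. The day 7 and C57BL/6 comparisons had no experiment term. The 10 genes are all named. From each pathway list up to 3 called genes with the lowest p are named, and for likeness the 2 most alike genes. The genes, lists and tests were chosen with earlier results of these data known. Alternatives were a pseudocount of 5, no filter, quantile normalization, edgeR 4.0.16 (quasi-likelihood, TMM) on recovered counts, no experiment term, a replicate block, single experiments (that within the other shared experiment chosen after seeing the data) and leaving out each library. The fits were tested on simulated data. Control libraries held in 2 tables (22) had identical recovered counts over 12270 genes and entered each fit once. One library whose labels disagree was in no group. Intervals of ratios cover counting error only.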

Additional observations from a re-analysis of the deposited data

Results flagged for a closer look

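In 11 of 150 groups of 4 to 9 libraries tested, 1 library stood far from the rest; chance flags about 1 in 20. Of Ddit3, untreated Il10ra mutant replicate 2 held 138.4 (next 103), 24 h Il10ra mutant replicate 2 held 84.7 (next 62.5) and 6 h doubly floxed replicate 4 held 90.1 (next 73.1). Of Trib3, 6 h control replicate 1 held 6.01 (next 1.71) and untreated Il10ra mutant replicate 6 held 3.17 (next 0.717), both on few counts. Of Herpud1, 6 h control replicate 1 held 732 (next 492) and 48 h doubly floxed replicate 2 held 418 (next 319.8). Chac1 was 5.08 in untreated doubly floxed replicate 4 (next 1.69), and Asns 6.42 in 48 h Il10ra mutant replicate 3 (next 2.14). Xbp1 was lowest in 6 h doubly floxed replicate 5, at 480.8 (next 534). Dnajb9 was 209.6 in 48 h control replicate 3 (next 136).

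The response at 48 h differed between Il10ra mutants and controls, by a test of the difference itself, for Hspa5 (-1.13, adjusted p = 0.00306, limma), Dnajb9 (-1.02, adjusted p = 0.0129) and Atf4 (0.84, adjusted p = 0.0447).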

How the results depend on the processing

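For Il10ra mutants against controls at 6 h, 1 of the 10 genes was called as reported. The count was 2 with a pseudocount of 5, 0 without the experiment term, 2 with the replicate block, 0 within the second experiment, 0 within the unnumbered one, and 0 to 3 on leaving out single libraries. At 24 h that comparison went from 0 to 1 with edgeR and gave 0 to 1 without single libraries. Doubly floxed controls at 48 h went from 2 to 1 with the replicate block and within the DKO post experiment and to 3 within the second DKO experiment, and gave 1 to 2 without single libraries. Doubly floxed controls at 6 h went from 7 to 4 within the DKO post experiment and to 6 within the second DKO experiment (5 higher and Ddit3 lower), and controls at 24 h from 4 to 2 within the second experiment. Atf3 in doubly floxed controls at 48 h was -0.38 (adjusted p = 0.542, limma) within the DKO post experiment, against 1.10 as reported. Single experiments held fewer libraries, and the cause of these changes was not tested. Atf4, Hspa5 and Dnajb9 kept their calls in Il10ra mutants against controls at 48 h under every alternative run, with differences of 0.96 to 1.08, -1.27 to -0.91 and -1.20 to -0.75. Same-numbered libraries showed little shared deviation (median r 0.00422, -0.00777 and -0.0158 in the 3 tables), and 4 of 26, 5 of 48 and 6 of 37 libraries correlated best with their own number. No pairing by number was thus seen, but low correlation cannot show that libraries were unpaired. Under the replicate block Xbp1 at 48 h in controls lost its call (0.49, adjusted p = 0.109, limma). Chaperones higher in double mutants than in Il10ra mutants numbered 5 with the replicate block and 6 without Il10ra mutant replicate 5, against 10 as reported. Quantile normalization and TMM moved the median of all genes by less than 0.1 (log2). With few counts, changes of Chac1, Asns and Trib3 are the least certain.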

Other observations

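One library of the second DKO experiment has labels that disagree on its group and was in no comparison. Its values in the double mutant table were 473 for Atf4, 1667 for Hspa5, 416 for Herpud1, 509.5 for Xbp1, 153 for Dnajb9, 98.7 for Ddit3, 32.5 for Sesn2, 3.68 for Asns and 1.23 for Chac1.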
